A study of Mus musculus with 6 samples.

Results

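The guanylate-binding protein genes Gbp2, Gbp3, Gbp4, Gbp5, Gbp6, Gbp7, Gbp8, Gbp9 and Gbp10 were followed through a comparison of cultured mouse macrophages with and without a knockdown of Piezo1. The 9 members were found by gene identifier, and all 9 were among the 55401 genes of the table and among the 15959 that passed the filter on low counts. The family was chosen by the measured level of Gbp10, higher in siPiezo1 than in siNC in these same libraries, so the values of Gbp10 and of its sum with Gbp6 are given below as a description, with no test. Gbp10 averaged 9.22 ± 0.952 CPM in siPiezo1 and 2.85 ± 0.304 CPM in siNC (SD, n = 3 each), where CPM is the count of a gene as a part of the scaled total of its library (counts per 1000000). The summed level of Gbp10 and Gbp6, a gene almost identical to it, was 142 ± 12.8 CPM in siPiezo1 and 119 ± 42.9 CPM in siNC, and these groups overlapped. Of the other 8 members, 0 passed edgeR's test across all genes, in which 0.00627% of genes passed. Piezo1 itself did not pass it either.

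Guanylate-binding proteins are large GTPases of the dynamin superfamily that interferons, above all interferon-gamma, induce in macrophages, in part through the transcription factor IRF1. They gather on the vacuoles and surfaces of intracellular bacteria and parasites, break them open together with the immunity-related GTPases, and help to start the AIM2 and caspase-11 inflammasomes. Some members carry a lipid anchor added by prenylation, which ties them to membranes.

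The cells were bone marrow-derived macrophages (BMDMs) of C57BL/6 mice, which are primary macrophages grown from marrow. In 3 libraries they had received an siRNA against Piezo1, a mechanically gated cation channel (siPiezo1), and in 3 a negative-control siRNA (siNC). Both groups were stretched for 4 h, so stretch is shared and unstretched cells were not analysed here. The study asked how Piezo1 acts on macrophage proliferation under mechanical load.

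The libraries held 67058765 to 75052745 estimated counts in siPiezo1 and 61086684 to 73573829 in siNC. An siRNA leaves part of the message in place. Piezo1 stood at 111, 109 and 113 CPM in siPiezo1 replicates 1 to 3, against 180, 285 and 189 CPM in siNC replicates 1 to 3. Its log2 fold change of -0.97 ± 0.18 (SE) did not pass with 6 libraries (adjusted p = 0.744, edgeR, Benjamini-Hochberg). Without siNC replicate 2 it was -0.73 ± 0.06 (SE) and passed (adjusted p = 0.00245, edgeR, Benjamini-Hochberg). All 10 genes of a macrophage marker list were measured, with summed levels of 34740 to 37590 CPM in siPiezo1 and 34650, 28260 and 35530 CPM in siNC replicates 1 to 3. Of 12 T and NK cell markers, 8 (Cd3e, Cd3d, Cd3g, Cd8a, Trac, Ncr1, Gzma and Eomes) were at 0 in every library, and the list summed to 2.06 to 5.44 CPM in siPiezo1 and 16.5, 3.56 and 13.3 CPM in siNC replicates 1 to 3. Cd4, which some macrophages also express, made up most of it, at 4.70, 5.39 and 1.88 CPM in siPiezo1, against 16.5, 1.83 and 13.2 CPM in siNC. The sum of 6 B cell markers was 2.80 to 5.92 CPM in siPiezo1 and 5.36 to 7.66 CPM in siNC, with Pax5 at 0. For 8 dendritic cell markers it was 400 to 428 CPM in siPiezo1 and 396, 307 and 410 CPM in siNC, with Cd209a and Siglech at 0. Nearly all of that came from Bst2, which macrophages also express. Stromal and endothelial markers (9 genes) summed to 22.1 to 26.1 CPM in siPiezo1 and 17.5, 34.1 and 15.6 CPM in siNC. Pecam1 alone gave 18.7 CPM in siNC replicate 2. Kdr stood at 9.82, 8.05 and 7.34 CPM in siPiezo1, against 4.25, 4.67 and 5.67 CPM in siNC, and Col1a2 at 4.26, 2.88 and 3.38 CPM in siPiezo1, against 2.24, 1.61 and 1.84 CPM in siNC. Of the 7 tested markers of this list, these 2 were higher in each siPiezo1 library, an order that 6.24% of all tested genes had. Neither passed the test. In Col1a1, Col3a1, Pdgfrb, Cdh5 and Pecam1 the groups overlapped. Pecam1 had a log2 fold change of -1.75 ± 0.86, or -0.18 ± 0.45 without siNC replicate 2 (SE). The part of these markers in the level of Gbp10 was not tested. The library of siNC replicate 2 stood apart: its 12 neutrophil markers summed to 3444 CPM, against 743 to 770 CPM in siPiezo1 and 784 and 841 CPM in siNC replicates 1 and 3. S100a8, S100a9, Ngp and Ltf made up most of this sum, at 854, 1044, 609 and 409 CPM. Not every marker rose there. Csf3r stood at 58.7 CPM in siNC replicate 2, against 121 and 132 CPM in siNC replicates 1 and 3. Retnlg was at 0 in siNC replicate 2. Genes outside the marker lists differed there too. Il1b stood at 292 CPM, against 16.8 and 18.2 CPM in siNC replicates 1 and 3, and Nos2 at 211 CPM, against 13.2 and 13.5 CPM. Of all tested genes, 28.8% were highest and 27.1% lowest in siNC replicate 2. The log2 fold changes of the members are therefore given with and without siNC replicate 2. So are the printed log2 fold changes of other genes that this library moved by over 1.5 times. The labels do not say whether replicates came from separate cultures or mice; p-values therefore cover only the spread among these libraries, which may be technical. In bulk RNA, fewer cells of a type and less RNA per cell cannot be told apart.

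The members lie in 2 clusters of the mouse genome. In the GRCm38 annotation Gbp5, Gbp7, Gbp3 and Gbp2 stand in this order on the plus strand of chromosome 3, and Gbp8, Gbp9, Gbp4, Gbp10 and Gbp6 lie on the minus strand of chromosome 5. Gbp10 (ENSMUSG00000105096) runs from 105215699 to 105239533 and Gbp6 (ENSMUSG00000104713) from 105270702 to 105293698. Gm43302, a read-through gene model at 105214907 to 105293695 on the same strand, spans nearly all of both and joins exons of Gbp6 to the last exon of Gbp10. Gm43302 shares 1792 exon bases with Gbp10, which are 46.3% of the exon bases of Gbp10, and 1726 with Gbp6, which are 29.0% of those of Gbp6. Upstream of Gbp6 lies Gbp11, and Gbp2b and the pseudogene Gbp2-ps belong to the chromosome 3 cluster.

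The 60 coding bases below are a stretch in which the other members lie close to Gbp10, with capitals at the bases that differ from it. The members are less alike elsewhere. Over the whole coding sequence, identity to Gbp10 ran from 63.3% (Gbp5) to 98.4% (Gbp6), with Gbp8 at 79.4%. The stretches come from the GRCm38 transcripts, on the coding strand, and start at coding base 194 of Gbp10.
Gbp10: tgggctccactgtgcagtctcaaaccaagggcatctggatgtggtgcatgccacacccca
Gbp8: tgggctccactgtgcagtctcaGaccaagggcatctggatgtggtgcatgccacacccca
Gbp6: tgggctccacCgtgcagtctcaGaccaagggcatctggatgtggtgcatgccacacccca
Gbp9: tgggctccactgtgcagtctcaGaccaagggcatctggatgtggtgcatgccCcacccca
Gbp4: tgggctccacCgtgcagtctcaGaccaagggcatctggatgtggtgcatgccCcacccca
Gbp2: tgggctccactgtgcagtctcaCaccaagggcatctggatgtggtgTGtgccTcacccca
Gbp3: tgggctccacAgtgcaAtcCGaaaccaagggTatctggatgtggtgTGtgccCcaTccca
Gbp5: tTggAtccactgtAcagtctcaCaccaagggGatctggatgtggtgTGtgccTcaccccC
Gbp7: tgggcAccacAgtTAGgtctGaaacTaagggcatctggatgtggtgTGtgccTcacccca
From Gbp10, the other chromosome 5 members differed at 1 base (Gbp8), 2 bases (Gbp6 and Gbp9) or 3 bases (Gbp4). The chromosome 3 members differed at 4 bases in Gbp2, 9 in Gbp3, 9 in Gbp5 and 10 in Gbp7.

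Over the whole coding sequence Gbp6 and Gbp10, each with a coding length of 1833 bases, were 98.4% identical. They differed by 26 substituted and 4 inserted or deleted bases, and their longest shared run was 421 bases, longer than the 150 bases of a read. Among stretches without inserted or deleted bases, they differ most in the 60 bases below, coding bases 130 to 189. The 5 differing bases are in capitals. A fragment can be given to 1 of the 2 genes only where it covers such bases or a part that the other lacks.
Gbp10: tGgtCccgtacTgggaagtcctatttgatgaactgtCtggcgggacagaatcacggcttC
Gbp6: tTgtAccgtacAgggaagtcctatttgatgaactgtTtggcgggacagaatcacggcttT
The next most similar pairs were far less alike: Gbp6 and Gbp9 were 89.9% identical, Gbp9 and Gbp10 89.7%, and Gbp4 was 87.7% to 87.9% identical to Gbp6, Gbp9 and Gbp10. On chromosome 3, Gbp3 and Gbp7 were 78.1% identical. Coding sequence of Gm43302 matched that of Gbp6 at 99.9%.

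Of all 150-base windows of the Gbp10 transcript, 36.8% occurred in no other gene. For the Gbp6 transcript used, of 2604 bases, the share was 23.5%. Leaving Gm43302 aside, the shares were 55.4% for Gbp10 and 69.7% for Gbp6. The longest Gbp6 transcript has 4243 bases, and its windows were not counted. A Gbp6 transcript of 4173 bases matched Gbp10 over 3131 bases at 99.2% identity without gaps. The likeness of these genes thus reaches beyond their coding length of 1833 bases. In Gbp7, 91.1% of windows were its own, the rest lying in Gm43802, a gene model that overlaps it. At least 99.9% of windows were unique in the other 6 members, so nearly all 150-base stretches of these 6 match no other gene. The bar plot of unique windows shows this split of the family: Gbp6 and Gbp10 stand low and the other 7 high.

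**Figure D1:**
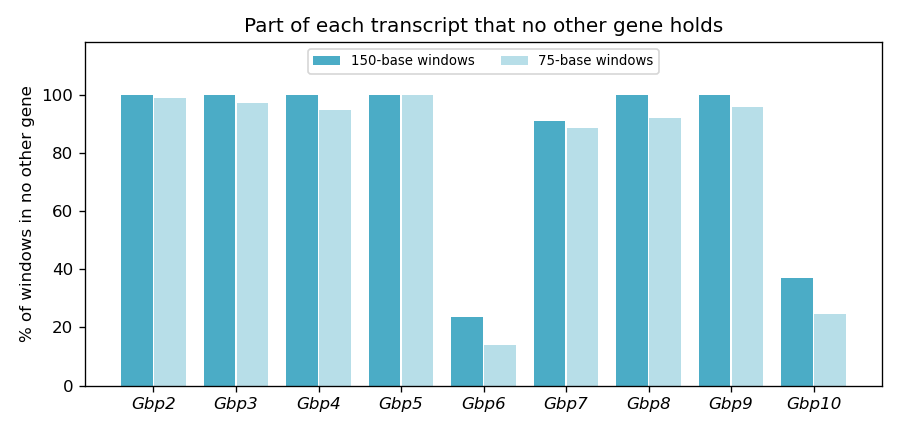
Share of the windows of each member's transcript that occur in no other gene of the GRCm38 annotation, in percent, for windows of 150 bases (dark bars) and 75 bases (light bars). Gbp10 (36.8%) and Gbp6 (23.5%) stand far below the other members, which reach 91.1% or more with 150 bases.

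Levels per length set the members apart over a wide range. As CPM per kilobase of exon, averaged over all 6 libraries with the SD, Gbp2 stood at 23.9 ± 4.37 and Gbp6 at 20.9 ± 4.99. Gbp3 followed at 10.4 ± 1.25, Gbp7 at 6.26 ± 1.01 and Gbp9 at 5.34 ± 1.34. Gbp5 stood at 1.81 ± 0.202, Gbp10 at 1.56 ± 0.917, Gbp8 at 0.617 ± 0.126 and Gbp4 at 0.186 ± 0.106. Gbp2 and Gbp6, and likewise Gbp7 and Gbp9, changed places between libraries and did not differ beyond their spread, whereas Gbp6 was above Gbp3 in all 6 libraries. Per kilobase of exon, the place of Gbp10 depended on the group, at 2.20 to 2.66 in siPiezo1 and 0.645 to 0.789 in siNC. It was above Gbp5 (1.83 to 2.03) in siPiezo1 and below Gbp5 (1.45 to 1.83) in siNC. In siNC its range overlapped that of Gbp8 (0.583 to 0.761). With the longest transcript as the length, Gbp6 (29.4 CPM per kilobase) came before Gbp2 (23.9), and Gbp5 averaged 3.19 against 1.71 for Gbp10. By that length Gbp10 was below Gbp5 in every library of both groups, so its change of place depended on the length used. Gbp2b and Gbp2-ps had no counts in any library, which allows up to 0.159 to 0.198 CPM, the level of 3 fragments at 4 counts each (counting error only). Gbp11 had 0, 0.465 and 0 CPM in siPiezo1 replicates 1 to 3, against 0, 0.0529 and 0.0598 CPM in siNC replicates 1 to 3, and was not tested.

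Summed over the 9 members, the family reached 326, 339 and 304 CPM in siPiezo1 replicates 1 to 3, against 305, 213 and 332 CPM in siNC replicates 1 to 3. The siPiezo1 libraries lay close to siNC replicates 1 and 3, and siNC replicate 2 was the lowest of the 6. Gbp6 alone made up 40.7%, 42.7% and 39.9% of this sum in siPiezo1, against 40.3%, 33.1% and 47.0% in siNC.

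**Figure D2:**
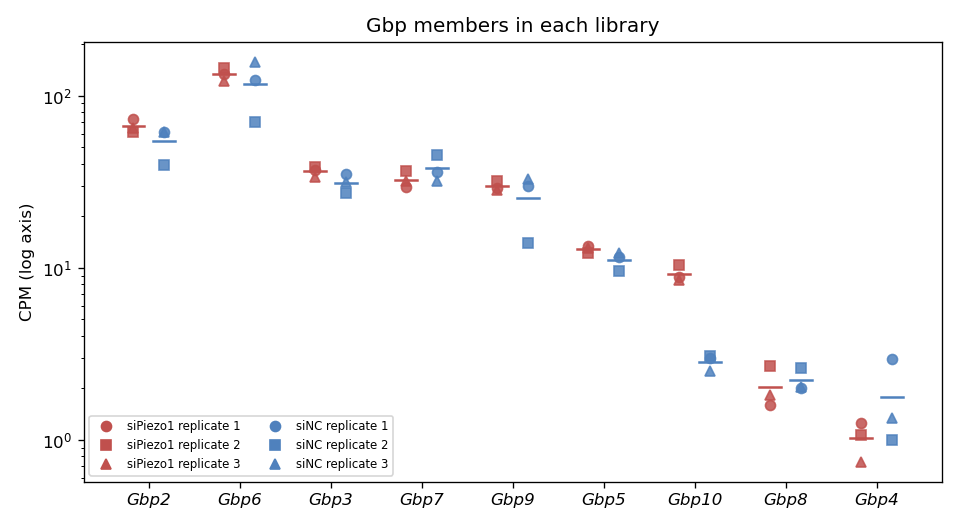
CPM of each member (log axis) in each siPiezo1 library (red, left) and each siNC library (blue, right), ordered by mean level per kilobase, with a line at each group's mean. The groups lie wide apart at Gbp10 (8.50 to 10.3 CPM in siPiezo1, 2.50 to 3.06 CPM in siNC) and narrowly at Gbp5, and they overlap at the other 7.

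Gbp10 is, with Gbp6, among the members whose loss in mouse macrophages weakens their control of intracellular bacteria. Its level was 8.86, 10.3 and 8.50 CPM in siPiezo1 replicates 1 to 3, against 2.98, 3.06 and 2.50 CPM in siNC replicates 1 to 3. Each siPiezo1 library was above each siNC library, by a ratio of means of 3.24. These levels rest on few fragments, about 142 to 194 in siPiezo1 and 41.8 to 57.8 in siNC at 4 counts each. The log2 fold change was 1.70 ± 0.19 (SE) with 6 libraries and 1.75 ± 0.21 (SE) without siNC replicate 2. Of all 15959 genes tested, 0.884% had a log2 fold change at least as large.

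Gbp6 is the member most like Gbp10 in sequence and stood far above it in level per kilobase. It stood at 133, 145 and 121 CPM in siPiezo1 replicates 1 to 3, against 123, 70.4 and 156 CPM in siNC replicates 1 to 3. The groups overlapped, with siNC replicate 3 the highest and siNC replicate 2 the lowest of all. Its log2 fold change was 0.19 ± 0.27 (SE), which did not pass (adjusted p = 0.991, edgeR, Benjamini-Hochberg), and without siNC replicate 2 it was -0.07 ± 0.12 (SE).

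The sum of Gbp6 and Gbp10, which does not depend on how fragments were divided between them, was 142, 155 and 130 CPM in siPiezo1 replicates 1 to 3, against 126, 73.5 and 158 CPM in siNC replicates 1 to 3. All siPiezo1 values lay between the lowest and the highest siNC value. The log2 fold change of the sum was 0.25 ± 0.26 (SE) with 6 libraries and 0.00 ± 0.12 (SE) without siNC replicate 2. Gbp10 took 6.26%, 6.63% and 6.56% of the summed counts in siPiezo1, against 2.37%, 4.16% and 1.58% in siNC. The share of Gbp10 was thus higher in each siPiezo1 library than in any siNC library, while the sums overlapped.

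Gm43302 had no counts in 5 libraries and 1775 counts, or 26.5 CPM, in siNC replicate 3. That is 14.4% of the counts of Gbp6, Gbp10 and Gm43302 together in that library. The gene model was singled out after its values were seen. Added to Gbp10, it gave 8.86, 10.3 and 8.50 CPM in siPiezo1 replicates 1 to 3, against 2.98, 3.06 and 29.0 CPM in siNC replicates 1 to 3. The groups then overlapped, and the ratio of means was 0.789. Added to the sum of Gbp6 and Gbp10, it raised siNC replicate 3 to 185 CPM, with a log2 fold change of 0.15 ± 0.30 (SE), and -0.13 ± 0.19 (SE) without siNC replicate 2. The part of this division of counts in the difference of Gbp10 was not tested.

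**Figure D3:**
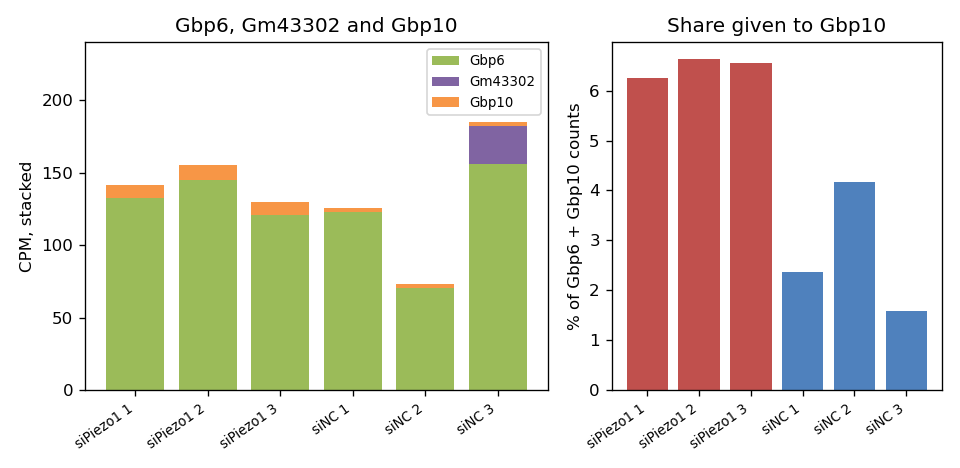
Left, CPM of Gbp6, Gm43302 and Gbp10 stacked for each library, siPiezo1 first; right, the share of the summed Gbp6 and Gbp10 counts given to Gbp10, in percent. The stacks of siPiezo1 (130 to 155 CPM) lie within the range of siNC, Gm43302 appears in siNC replicate 3 alone, and the share of Gbp10 is 6.26% to 6.63% in siPiezo1 and 1.58% to 4.16% in siNC.

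Gbp2, a prenylated member that is recruited to parasite vacuoles and to bacteria, stood at 72.7, 61.0 and 65.1 CPM in siPiezo1 replicates 1 to 3, against 61.5, 39.7 and 61.5 CPM in siNC replicates 1 to 3. The groups overlapped, and siNC replicate 2 was the lowest. Gbp5, also prenylated and reported in mouse to promote the NLRP3 inflammasome, stood at 13.4, 12.2 and 13.0 CPM in siPiezo1, against 11.6, 9.62 and 12.1 CPM in siNC. It was the second member, after Gbp10, whose siPiezo1 libraries were all above siNC, by a narrow gap between siPiezo1 replicate 2 and siNC replicate 3. So 1 of the 8 members other than Gbp10 had this order, as did 6.24% of all tested genes; none had the reverse order, which 5.65% of genes had. Gbp3 stood at 37.1, 38.7 and 33.8 CPM in siPiezo1, against 34.9, 27.3 and 31.6 CPM in siNC, with an overlap between siPiezo1 replicate 3 and siNC replicate 1. In log2 fold change, Gbp2 was at 0.29 ± 0.18, Gbp3 at 0.22 ± 0.12 and Gbp5 at 0.21 ± 0.14 (SE). Without siNC replicate 2 these values were 0.10 ± 0.09, 0.13 ± 0.10 and 0.12 ± 0.13 (SE).

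Gbp7, which in mouse macrophages has been tied to the phagocyte oxidase and to autophagy, had a fold change of the opposite sign. Its levels were 29.3, 36.6 and 31.7 CPM in siPiezo1 replicates 1 to 3, against 36.2, 45.2 and 32.0 CPM in siNC replicates 1 to 3. Here siNC replicate 2 was the highest library, and the groups overlapped. The log2 fold change was -0.22 ± 0.16 (SE), and -0.07 ± 0.12 (SE) without siNC replicate 2.

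Gbp9 stood at 29.1, 31.9 and 28.1 CPM in siPiezo1 replicates 1 to 3, against 30.0, 13.9 and 32.7 CPM in siNC replicates 1 to 3. Apart from siNC replicate 2, the libraries lay within a narrow band. Its log2 fold change was 0.22 ± 0.30 (SE), and -0.08 ± 0.10 (SE) without that library. Gbp8 and Gbp4 rested on few fragments, 28.5 to 50.3 per library for Gbp8 and 12.5 to 45.0 for Gbp4. Gbp8 had 1.59, 2.67 and 1.82 CPM in siPiezo1, against 2.01, 2.62 and 2.03 CPM in siNC, a log2 fold change of -0.13 ± 0.31 (SE). Gbp4, reported in mouse to inhibit the interferon regulator IRF7, had 1.24, 1.06 and 0.747 CPM in siPiezo1, against 2.96, 0.993 and 1.33 CPM in siNC, a log2 fold change of -0.79 ± 0.49 (SE). In siNC, Gbp4 was highest in replicate 1. Its log2 fold change was -0.19 ± 0.43 (SE) without that library and -1.08 ± 0.45 (SE) without siNC replicate 2, where it did not pass either (adjusted p = 0.335, edgeR, Benjamini-Hochberg). For Gbp8 it was 0.003 ± 0.34 (SE) without siNC replicate 2.

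Of the 8 members other than Gbp10, 0 passed edgeR's quasi-likelihood test at an adjusted p under 0.05 (Benjamini-Hochberg; adjusted p of 0.978 to 0.991). An unadjusted p under 0.05 was reached by 0 of them and by 4.93% of all genes. DESeq2 and edgeR without siNC replicate 2 also called 0 of these 8. Piezo1, the siRNA target, did not pass with 6 libraries either (adjusted p = 0.744, edgeR, Benjamini-Hochberg). A gene that did not pass is thus not shown to be unchanged. Over all genes, 0.00627% were called in either direction by edgeR with 6 libraries, 0.555% by DESeq2 and 1.09% by edgeR without siNC replicate 2. The median log2 fold change of these 8 members was 0.20, with 5 above 0 and 3 below, against -0.01 for all tested genes, of which 48.0% were above 0. Without siNC replicate 2 it was -0.03, with 4 above and 4 below, against 0.00 for all genes, of which 50.5% were above 0.

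**Figure D4:**
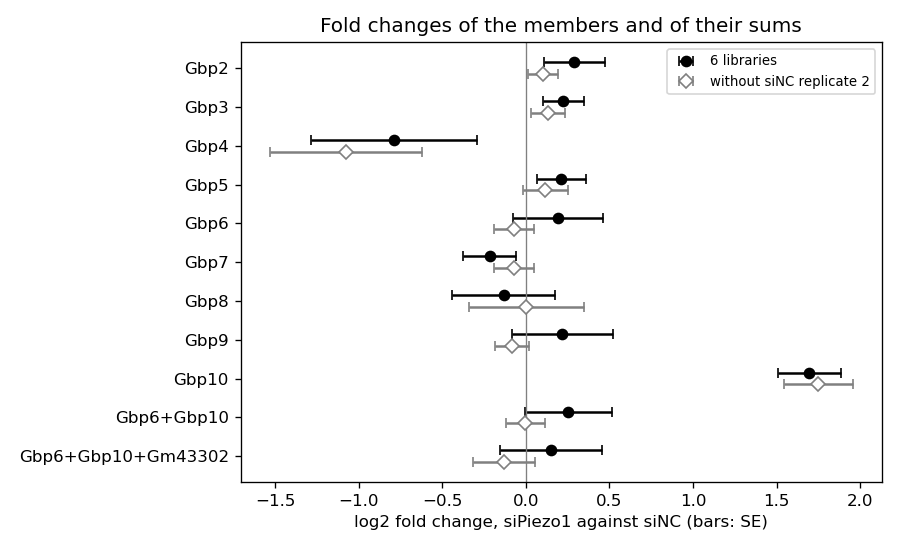
Log2 fold change of siPiezo1 against siNC with its SE for each member, for Gbp6 and Gbp10 summed, and with Gm43302 added, using 6 libraries (filled) and leaving out siNC replicate 2 (open). Gbp10 stands alone near 1.70, Gbp4 lies below 0 with wide bars, and the other members and both sums stay between -0.22 and 0.29.

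In 6 of the 9 members the SD within siNC was larger than the difference between the group means, Gbp3, Gbp5 and Gbp10 being the exceptions. Relative to the mean of siNC replicates 1 and 3, siNC replicate 2 held 0.443 times as much Gbp9, 0.462 times as much Gbp4, 0.505 times as much Gbp6 and 0.646 times as much Gbp2. For Gbp5 the ratio was 0.812 and for Gbp3 0.820, while Gbp10 (1.12), Gbp8 (1.30) and Gbp7 (1.33) were higher. In 5 members siNC replicate 2 was the lowest of the 6 libraries and in 1, Gbp7, the highest. Over all tested genes the shares were 27.1% and 28.8%. Neutrophil marker sums, macrophage marker sums, Il1b and Nos2 moved in the same library, as given above, and their part in these values was not tested.

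Promoters were looked at for the members that had one in the promoter set. In siNC replicate 2, as given above, Gbp2, Gbp3 and Gbp5 were low and Gbp7 was high. RefSeq promoters of GRCm38.p6, from 250 bases before to 50 after the start, were held for 4 of the 9 members (Gbp2, Gbp3, Gbp5 and Gbp7); those of Gbp4, Gbp6, Gbp8, Gbp9 and Gbp10 were not analysed here. They were searched on both strands for the core of the interferon-stimulated response element (ISRE; GAAA, any 2 bases, GAAA), which IRF factors bind, and of the gamma-activated site (GAS; TTC, any 3 bases, GAA). Below are 3 of them on the plus strand with matches to either motif in capitals.
Gbp2 promoter, chr3:142620413-142620712: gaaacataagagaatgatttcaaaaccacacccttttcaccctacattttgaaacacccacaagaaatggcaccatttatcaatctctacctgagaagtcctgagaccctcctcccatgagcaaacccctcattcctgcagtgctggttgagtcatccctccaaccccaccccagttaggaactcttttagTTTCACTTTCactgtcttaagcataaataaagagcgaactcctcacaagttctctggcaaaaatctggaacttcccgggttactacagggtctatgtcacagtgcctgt
Gbp5 promoter, chr3:142496684-142496983: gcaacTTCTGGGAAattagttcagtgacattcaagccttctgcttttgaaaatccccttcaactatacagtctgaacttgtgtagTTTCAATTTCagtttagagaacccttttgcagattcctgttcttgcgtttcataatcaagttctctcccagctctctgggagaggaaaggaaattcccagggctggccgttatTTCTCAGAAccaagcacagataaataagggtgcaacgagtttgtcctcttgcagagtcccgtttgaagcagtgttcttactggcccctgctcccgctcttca
Gbp7 promoter, chr3:142530086-142530385: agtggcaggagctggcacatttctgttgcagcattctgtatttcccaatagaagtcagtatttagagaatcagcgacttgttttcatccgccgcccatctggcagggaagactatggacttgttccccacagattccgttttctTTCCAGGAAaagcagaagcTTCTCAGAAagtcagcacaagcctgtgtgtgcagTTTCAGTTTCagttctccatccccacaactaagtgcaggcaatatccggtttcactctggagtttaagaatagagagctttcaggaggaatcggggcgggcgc
The ISRE match began 59 bases before the start in Gbp2, 165 bases before in Gbp5 and 53 bases before in Gbp7, each time read on the minus strand. Gbp3 had 2 overlapping ISRE matches, the first 45 bases before its upstream start, and none at its second start. GAS matches numbered 2 in Gbp5 and 2 in Gbp7, none overlapping an ISRE match, and 0 in Gbp2 and Gbp3. Of 32841 promoters in the table, 3.44% held an ISRE match and 8.30% a GAS match. A match is a run of letters and not a measured binding site.

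Around the family, the ligands and receptors of the interferon pathway gave the following picture. Of the ligand genes, Ifnb1, Ifna4 and Ifna2 had no counts in any library, and Ifng, the gene of interferon-gamma, had none in siNC and at most 0.0559 CPM in siPiezo1, below the level of 3 fragments. Of the 4 tested ligand genes 0 passed. Il27 was at a log2 fold change of 0.13 ± 0.50, or 0.43 ± 0.55 without siNC replicate 2 (SE). Il12a, a subunit of the interferon-gamma inducer IL-12, was at -1.88 ± 1.68, or 3.13 ± 0.85 without siNC replicate 2 (SE). Il12a had 39, 81 and 152 counts in siPiezo1, against 4, 1055 and 15 in siNC replicates 1 to 3. Its first value thus rests on siNC replicate 2, and its second on few counts in siNC. Of 20 genes for interferon receptors and signalling, 0 passed edgeR's test, and their median log2 fold change was 0.06, with 15 above 0. Irf1, an interferon-induced factor that acts on GBP promoters, stood at 72.5, 85.7 and 82.4 CPM in siPiezo1, against 82.7, 49.8 and 87.6 CPM in siNC. Here siNC replicate 2 was the lowest library, as in Gbp2, Gbp3, Gbp5, Gbp6 and Gbp9. The log2 fold change of Irf1 was 0.13 ± 0.21, or -0.09 ± 0.09 without siNC replicate 2 (SE). Irf8, a macrophage lineage regulator, had the smallest p of this list, with a log2 fold change of 0.65 ± 0.25 (SE) that did not pass (adjusted p = 0.978, edgeR, Benjamini-Hochberg). Ifngr1, a chain of the interferon-gamma receptor, was at -0.40 ± 0.23 and Irf2, an IRF1 antagonist, at 0.24 ± 0.12 (SE). Neither passed without siNC replicate 2, with -0.62 ± 0.13 for Ifngr1 and 0.14 ± 0.09 for Irf2 (SE). The median of the list was then 0.03, with 12 above 0.

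Other interferon-inducible GTPases, the immunity-related GTPases and their kin that act beside the GBPs, were measured for 12 of 14 genes. None of the 12 passed, with 7 above 0 and 5 below, and a median log2 fold change of 0.03. Without siNC replicate 2 the median was -0.31, with 1 above 0 and 11 below, and again 0 passed. Their summed level was 896 to 966 CPM in siPiezo1, against 1073, 605 and 1083 CPM in siNC replicates 1 to 3. Ifi47 stood at 88.9, 89.7 and 113 CPM in siPiezo1, against 133, 74.4 and 138 CPM in siNC. Its log2 fold change was -0.24 ± 0.24 with 6 libraries and -0.48 ± 0.11 without siNC replicate 2 (SE). F830016B08Rik was at -0.48 ± 0.51 with 6 libraries and -0.90 ± 0.20 without siNC replicate 2, and the antiviral Mx2 at 0.24 ± 0.25 and 0.03 ± 0.17 (SE). None of these 3 passed in either fit.

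Type I interferon targets, of which 26 of 27 were tested, showed the same dependence on 1 library. Their median log2 fold change was 0.09, with 20 above 0, and -0.13 without siNC replicate 2, with 3 above 0 and 23 below; 0 passed in either case. They summed to 4847 to 5365 CPM in siPiezo1, against 5565, 3293 and 5610 CPM in siNC replicates 1 to 3. The antiviral Rsad2 was at a log2 fold change of 0.28 ± 0.17, Bst2 at 0.17 ± 0.12 and Oasl1 at -0.43 ± 0.36 (SE). Without siNC replicate 2 these values were 0.10 ± 0.07 for Rsad2, 0.04 ± 0.06 for Bst2 and -0.73 ± 0.30 for Oasl1 (SE).

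Of the other interferon-gamma targets, 19 of 22 were tested and 0 passed. The median log2 fold change was 0.12, and 0.04 without siNC replicate 2. The 3 with the smallest p act in antigen presentation. H2-Ab1, an MHC class II chain, stood at 7.21, 8.19 and 10.3 CPM in siPiezo1, against 3.42, 5.73 and 4.13 CPM in siNC, which is 0.95 ± 0.26 (SE) in log2 fold change (adjusted p = 0.885, edgeR, Benjamini-Hochberg). Tap1, a subunit of the peptide transporter, was at 0.36 ± 0.13 and B2m, the MHC class I light chain, at 0.31 ± 0.12 (SE). None of the 3 passed without siNC replicate 2, with 1.18 ± 0.23 for H2-Ab1, 0.25 ± 0.10 for Tap1 and 0.20 ± 0.05 for B2m (SE). Without siNC replicate 2, Cd274, the gene of PD-L1, passed, at 0.34 ± 0.06 (SE) in log2 fold change (adjusted p = 0.042, edgeR, Benjamini-Hochberg), and so did Socs3, a feedback inhibitor of cytokine signalling, at 0.77 ± 0.13 (SE) (adjusted p = 0.0351). Of all genes, 0.645% passed as higher in that test. With 6 libraries neither passed, and siNC replicate 2 held 284 CPM of Cd274 and 272 CPM of Socs3, more than any other library.

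**Figure D5:**
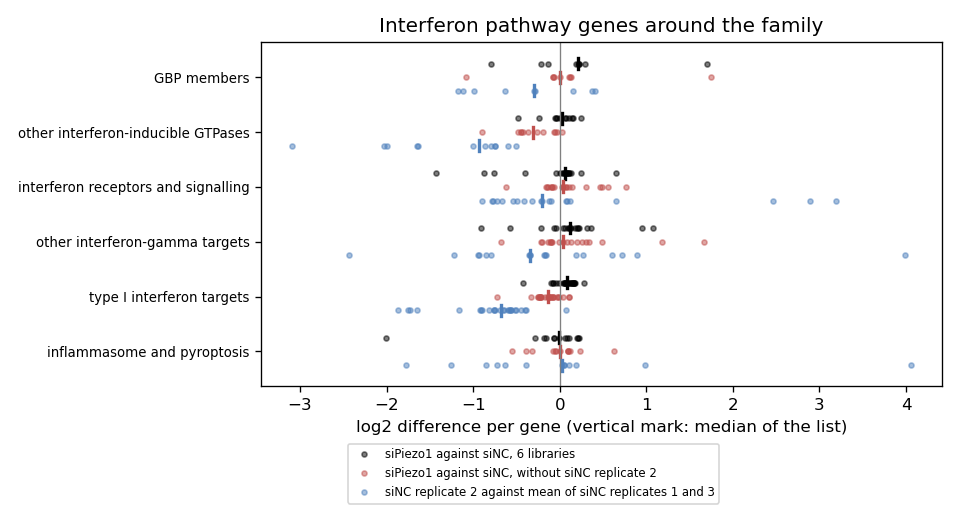
Log2 difference of each tested gene (points) and the median of each list (vertical marks) for siPiezo1 against siNC with 6 libraries (black) and without siNC replicate 2 (red), and for siNC replicate 2 against the mean of siNC replicates 1 and 3 (blue). The blue medians lie at -0.93 for other interferon-inducible GTPases and at -0.67 for type I targets, and the red medians of these lists are below the black ones; Ciita, at 0 in siNC replicate 2, is counted in its median but has no blue point.

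Among the downstream partners of the GBPs no gene passed. Of 13 inflammasome and pyroptosis genes 0 passed, with a median log2 fold change of -0.01, and Casp4, which encodes caspase-11, stood at 45.0, 38.8 and 36.1 CPM in siPiezo1, against 36.7, 38.5 and 37.8 CPM in siNC. Aim2 was at 0.22 ± 0.13 and Casp1 at 0.22 ± 0.14 (0.09 ± 0.09 without siNC replicate 2; SE), while Il1b was at -2.00 ± 1.10 with 6 libraries and 0.63 ± 0.12 without siNC replicate 2. For 18 autophagy genes the median was 0.10, or 0.02 without siNC replicate 2, and 0 passed; Tax1bp1 was at 0.17 ± 0.07, Atg12 at 0.16 ± 0.07 and Map1lc3b at 0.41 ± 0.21 (SE). For 7 genes of the phagocyte oxidase and nitric oxide the median was 0.03, or 0.07 without siNC replicate 2, and 0 passed. The nitric oxide gene Nos2 stood at 39.0, 27.5 and 60.7 CPM in siPiezo1, against 13.2, 211 and 13.5 CPM in siNC. Its log2 fold change was -0.90 ± 1.08, or 1.66 ± 0.39 without siNC replicate 2 (SE). Nos2 is also in the list of interferon-gamma targets. Cybb was at 0.30 ± 0.13 (0.19 ± 0.06 without siNC replicate 2), Ncf4 at 0.14 ± 0.07 and Cyba at 0.12 ± 0.10 (0.06 ± 0.07 without it; SE).

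Among 8 genes of prenylation and its lipid supply, on which the anchors of Gbp2 and Gbp5 depend, 0 passed with 6 libraries and the median was -0.06. Fdps, which makes farnesyl diphosphate, stood at 40.6, 40.0 and 40.2 CPM in siPiezo1 replicates 1 to 3, against 61.7, 48.3 and 67.0 CPM in siNC replicates 1 to 3. Each siPiezo1 library was below each siNC library. Its log2 fold change of -0.55 ± 0.13 (SE) did not pass with 6 libraries (adjusted p = 0.853, edgeR, Benjamini-Hochberg), and without siNC replicate 2 it was -0.68 ± 0.08 (SE) and passed (adjusted p = 0.0117), where 0.45% of all genes passed as lower. Ggps1, which makes the geranylgeranyl anchor, was at -0.25 ± 0.13 and Rce1, which trims the anchored tail, at -0.22 ± 0.13 (SE).

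The genes most like the family in pattern were sought among 10047 genes with a mean of at least 5 CPM, by Pearson's r of log2 CPM over the 6 libraries, as a description of libraries that share groups and depth. Nearest to Gbp10 were Arfgef3 (0.993), Cd28 (0.985) and Rab2a (0.980), and 23 genes reached 0.95. Their levels were higher in each siPiezo1 library, which largely follows from choosing them by likeness to Gbp10. For Cd28 they were 47.2, 44.0 and 44.0 CPM in siPiezo1, against 27.8, 29.4 and 25.5 CPM in siNC. Nearest to the sum of Gbp6 and Gbp10 were Zfp362 (0.997), Pygb (0.992) and Prex1 (0.992), with 179 genes at 0.95 or more, and nearest to Gbp2 were Tbk1 (0.999), Fbxo31 (0.998) and Cd300lb (0.995), with 191. These 2 patterns have their lowest value in siNC replicate 2, and that of Gbp10 does not.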

How the data were processed

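RNA of 6 libraries was read as paired ends of 150 bases from strand-marked libraries, per the labels' protocols. The authors deposited estimated counts as whole numbers for each Ensembl gene, unscaled; per the submitters' processing notes, cutadapt 1.9, HISAT2 2.0.4, StringTie 1.3.4d, DESeq2, edgeR and the build GRCm39 were used. How fragments shared by genes were divided, which annotation release was used and whether strand was used is not given in the sources used here. Low values lie at multiples of about 4 counts, so a fragment was taken as 4 counts. The analysis plan had assumed counts; the estimated counts were already whole and the test was kept.

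Counts were analysed with edgeR 4.0.16 in R 4.3.3 (filterByExpr, TMM, robust quasi-likelihood test, group as the only term, Benjamini-Hochberg over 15959 genes, threshold 0.05), checked on simulated data. SE is the log2 fold change over the root of F. CPM used TMM factors of 0.988 to 1.028. Sums of genes were fitted as rows of their own in the whole table. Names came from GENCODE M21 for 55141 of 55401 identifiers; sequences, windows and coordinates are of its build, GRCm38, and not of the build of the counts. Each 150-base window was looked up in all transcripts on both strands.

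Members and lists were chosen with earlier results of these data known. Named genes are the members, their sums and Piezo1. From each list, the genes past the threshold are named, or else up to 3 with the smallest p. The 3 genes most correlated with Gbp10, with the Gbp6 and Gbp10 sum and with Gbp2 are named too. Marker lists are given by their sums. Irf1, Ifng, Casp4, Cd274, Socs3 and Nos2 were added after their values were seen. Alternatives were DESeq2 1.42.0 and its size factors, library totals, other filters, limma-voom (limma 3.58.1), counts divided by 4, a replicate block, a threshold of 0.1, each library left out, the longest transcript, 75-base windows and another GAS spacing; the sums with Gm43302 were added after the data were seen.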

Additional observations from a re-analysis of the deposited data

How the results depend on the processing

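Log2 fold changes of the members moved mainly with the library left out. Leaving out each library in turn gave 1.61 to 1.75 for Gbp10, 0.10 to 0.39 for Gbp2, 0.13 to 0.31 for Gbp3, -1.08 to -0.19 for Gbp4, 0.12 to 0.28 for Gbp5, -0.07 to 0.46 for Gbp6, -0.32 to -0.07 for Gbp7, -0.38 to 0.015 for Gbp8 and -0.08 to 0.44 for Gbp9. It gave 0.00 to 0.51 for Gbp6 and Gbp10 summed and -0.13 to 0.51 with Gm43302 added. Gbp6 (-0.072) and Gbp9 (-0.082) turned below 0 without siNC replicate 2, and Gbp8 turned above 0 without siNC replicate 2 (0.003) or siPiezo1 replicate 1 (0.015). Over all 14 alternatives the adjusted p of the 8 other members stayed between 0.335 and 0.9999 (edgeR, DESeq2 or limma-voom, Benjamini-Hochberg). With Gm43302 added to Gbp10, the ratio of means was 0.789 in place of 3.24; leaving out a library gave 3.05 to 3.37.

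Deviations from the group means of libraries with the same replicate number correlated at 0.0296, -0.0620 and -0.0861 for numbers 1 to 3. Not every sample correlated best with its own number. Deviations cancel within each group and siNC replicate 2 stood apart, so these correlations depend on each other. They cannot decide whether the samples were paired. With the replicate block the log2 fold changes were 1.70 for Gbp10, 0.26 for Gbp6, 0.32 for their sum, 0.31 for Gbp2 and -0.67 for Gbp4, and 0 genes passed over all genes, against 1 without it.

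Over all genes, edgeR called 1, library totals alone 0, DESeq2 88, and leaving out a library 0 to 180, with 180 without siNC replicate 2 and 5 without siPiezo1 replicate 3. Lists went to 0 to 1 for signalling, interferon-gamma targets and prenylation and to 0 to 3 for macrophage markers (all lower in siPiezo1), each time without siNC replicate 2. The cause was not tested. With the longest transcript as length the levels were 12.6 for Gbp3, 0.306 for Gbp4, 3.19 for Gbp5 and 29.4 CPM per kilobase for Gbp6. With 75-base windows the unique share was 24.5% for Gbp10 and 14.0% for Gbp6, and 88.6% to 99.9% for the others; the GAS core with 4 free bases was in 6.95% of promoters. Few fragments of Gbp4, Gbp8 and Gbp10 limit what can be seen at this depth.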
